A study of Mus musculus with 11 samples.

Results

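The 7 intermediate filament genes described here are Des (desmin), Nes (nestin), Vim (vimentin), Krt8, Krt18 and Krt19 (keratins 8, 18 and 19) and Lmna (lamin A and C). They were chosen by gene name, and every probe named for them by symbol, older synonym or accession was used, which gave 11 probes of the 41121 kept and 7 genes of the 27567 named on the array. Intermediate filaments are rope-like polymers that give cells and nuclei mechanical strength. Desmin ties the contractile units of muscle to each other and to the cell membrane, vimentin is the filament of mesenchymal cells, and nestin, which needs a partner such as vimentin or desmin to polymerise, is made in progenitors of muscle and brain and falls as they mature. Keratins form obligate pairs in epithelia, keratins 8 and 19 have also been described at the membrane of striated muscle, and lamin A and C line the nuclear envelope of most differentiated cells.

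The RNA came from cardiac progenitor cells (mesoangioblasts, vessel-associated progenitors) grown from the ventricle, aorta and atrium of mouse hearts, and each sample was hybridised to 1-colour Agilent arrays. The KO-labelled group was from beta-sarcoglycan null mice, which lack a membrane protein of the dystrophin complex and develop muscular dystrophy, the WT-labelled group was from wild-type mice, and C2C12, a mouse myoblast line, was included as a positive control for skeletal muscle differentiation. The 11 arrays stood for 8 samples, because 3 pairs of arrays differed by less than the noise between repeated spots and were joined: 3 KO samples (ventricle, aorta and atrium), 3 WT samples (atrium, ventricle and aorta) and 2 C2C12 samples. Strain, age, sex, number of mice per sample, passage and growth state are not given in the sources used here, so p-values measure only the spread between these samples. No slide held both genotypes, and genotype and slide can be separated only through the C2C12 array that each of the 3 slides carried.

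Levels below are log2 of the processed signal minus the array's 75th percentile, so a difference of 1 is a 2-fold change; a level says nothing about one gene against another, since probes differ in brightness. Beta-sarcoglycan itself (Sgcb) was not lower in the samples labelled KO: its brightest probe read 2.99, 2.34 and 2.64 in KO ventricle, aorta and atrium, against 2.07, 2.20 and 1.82 in WT atrium, WT ventricle and WT aorta. Which part of the gene was deleted is not given, so the probe may lie outside it, and KO-labelled and WT-labelled are used as names of the groups throughout. Of 5 markers of skeletal muscle precursors (Myod1, Myf5, Myog, Cdh15 and Chrna1), all 5 were above background in KO-labelled samples and 2 in WT-labelled samples, where Myf5, Myog and Cdh15 were not above background. Their summed signal, in units of the array's 75th percentile, was 37.4 to 133 in KO-labelled samples and 0.0676 to 0.130 in WT-labelled samples, and 58.9 to 134 in C2C12. No endothelial marker of 4 was above background in either group of progenitors. Of 4 blood markers, 2 were above background in KO-labelled and 3 in WT-labelled samples, with summed levels of 0.121 to 0.170 in KO-labelled and 1.15 to 2.18 in WT-labelled samples. Among them Ptprc, the leukocyte marker, was above background on no array, Lyz2, a lysozyme of macrophages and granulocytes, on 0 of 5 KO-labelled and 3 of 3 WT-labelled arrays, and Lyz2 and C1qb were lower in KO-labelled samples (limma adjusted p = 9.73e-05 and 0.0202). Summed fibroblast markers were 188 to 213 in KO-labelled and 134 to 217 in WT-labelled samples, but single markers split. All 5 were called, where 29.8% of all tested genes were. Col1a1 and Col1a2 were higher in KO-labelled samples, by 0.77 and 0.91 (limma adjusted p = 0.0116 and 0.0153). Pdgfra and Dcn were lower, at -4.11 and -4.16 (adjusted p = 0.00102 and 0.0431). Thy1, above background on 0 of 5 KO-labelled and 3 of 3 WT-labelled arrays, was at least 1293-fold lower (adjusted p = 0.00011). Summed glial and neural markers were 2.22 to 2.95 in KO-labelled and 1.44 to 2.05 in WT-labelled samples. The part of these cell types in the results below was not tested.

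The starts of the 3 genes on which the comparison turns are shown because Des and Nes moved together while Vim did not. They are RefSeq sequences of build GRCm38.p6, from 250 bases before to 50 bases after the gene's start, on the plus strand: Des at chr1:75360042-75360341, Nes at chr3:87970843-87971142 and Vim at chr2:13574061-13574360. Capitals mark E-boxes (CANNTG, a palindrome, so read on both strands), the letters that myogenic factors of the MyoD family can bind.
Des: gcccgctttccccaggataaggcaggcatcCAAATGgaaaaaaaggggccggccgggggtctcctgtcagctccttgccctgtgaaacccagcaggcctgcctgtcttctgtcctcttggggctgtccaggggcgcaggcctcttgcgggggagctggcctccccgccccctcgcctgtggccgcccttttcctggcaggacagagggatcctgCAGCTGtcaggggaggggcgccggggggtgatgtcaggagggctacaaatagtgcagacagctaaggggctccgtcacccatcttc
Nes: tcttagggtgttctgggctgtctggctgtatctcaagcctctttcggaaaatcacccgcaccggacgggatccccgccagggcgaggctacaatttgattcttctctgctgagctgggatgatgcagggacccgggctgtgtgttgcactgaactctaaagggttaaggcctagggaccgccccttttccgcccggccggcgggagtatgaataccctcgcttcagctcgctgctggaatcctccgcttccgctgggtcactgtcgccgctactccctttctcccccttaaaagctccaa
Vim: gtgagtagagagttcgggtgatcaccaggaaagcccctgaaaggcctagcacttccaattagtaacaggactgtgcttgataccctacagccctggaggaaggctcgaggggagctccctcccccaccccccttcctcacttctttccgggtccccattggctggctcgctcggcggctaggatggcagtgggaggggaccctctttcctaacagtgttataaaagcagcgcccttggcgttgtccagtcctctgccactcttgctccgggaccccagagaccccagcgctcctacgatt
The Des window held 2 E-boxes, CAAATG starting at position -220 and CAGCTG starting at -36 relative to the gene's start, while the Nes and Vim windows held 0. An E-box of any kind was present in 72.3% of the 32851 promoter windows of 300 bases, and CAGCTG in 16.3%. The Des and Nes windows each held 2 GC boxes (GGGCGG, both strands), found in 35.7% of all windows, and Vim held TATAAA starting at -32, found on either strand in 13.6%. None of the 3 held a MEF2 or CArG motif on either strand. These are letter matches within 300 bases and say nothing about binding.

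Desmin and nestin were far brighter in KO-labelled than in WT-labelled progenitors, in samples of all 3 heart regions, while vimentin and lamin A/C sat at nearly 1 level in every sample. Keratin 19 was low everywhere and higher in KO-labelled samples, keratin 8 was near background outside the KO aorta, and keratin 18 was above background on no array. Of the 6 members tested, 3 (Des, Nes and Krt19) were higher in KO-labelled samples at an adjusted p under 0.05 (limma, Benjamini-Hochberg over 15002 genes) and 0 were lower. In the same comparison 13.7% of all tested genes were higher, 16% were lower and 29.8% were called in either direction. Krt19 was above background on 3 of 5 KO-labelled and 0 of 3 WT-labelled arrays. It thus entered the test only through the group where it was brighter. Des, above background on 1 of 3 WT-labelled arrays, also passed the filter of 3 arrays only through its KO-labelled arrays. This limits what the calls of Krt19 and Des add to the count. With only probes above background on every array, 3 members were tested and 1, Nes, was called higher. The median log2 difference over the 6 members was 1.09, or 0.44 with genes not above background in WT-labelled samples set at their bound, against -0.06 over all tested genes. Scaling to the array median in place of the 75th percentile moved the median over all genes to 0.05.

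**Figure D1:**
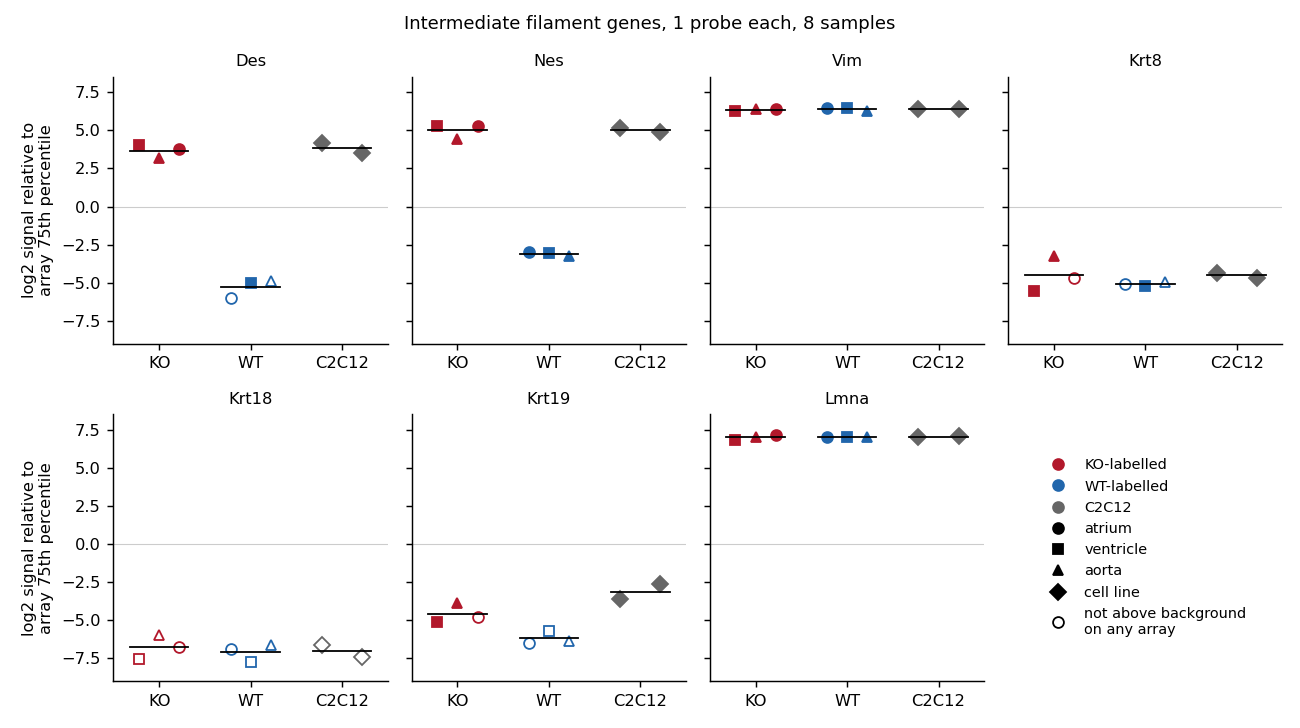
Level of each intermediate filament gene (log2 signal relative to the array's 75th percentile, 1 probe per gene) in 3 KO-labelled, 3 WT-labelled and 2 C2C12 samples; marker shape gives the heart region, open markers were not above background on any array of the sample, and bars are group means. Des and Nes separate KO-labelled and C2C12 samples from WT-labelled samples, and Vim and Lmna lie on a line across all 8 samples.

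Desmin is the muscle-specific type III filament protein, and its transcript is an early sign of the muscle lineage. The single Des probe (mm8 chr1:75249977-75250202, printed on 10 spots of each array) read 4.01, 3.16 and 3.76 in KO ventricle, aorta and atrium, against -5.98, -5.04 and -4.89 in WT atrium, WT ventricle and WT aorta. The groups lay far apart, and the processed signals behind these values were 9093 to 17211 in KO-labelled arrays and 17.5 to 38.5 in WT-labelled arrays. Desmin was above background on 5 of 5 KO-labelled arrays and on 1 of 3 WT-labelled arrays, that of the ventricle. Since 2 of the WT-labelled values are only upper bounds, the group difference is given as a bound: with WT-labelled arrays set no lower than the lowest signal above background, desmin was at least 329.7-fold higher in KO-labelled samples (fitted log2 difference 8.95 ± 0.36 SE, limma adjusted p = 3.81e-05). In ventricle, where it was measured on both sides, KO-labelled minus WT-labelled was 9.05. In these bulk samples, fewer cells that make desmin and less desmin RNA per cell cannot be told apart.

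Nestin, the large filament protein of muscle and neural progenitors, was measured on every array. Its probe (mm8 chr3:88066313-88066372, also on 10 spots) read 5.31, 4.41 and 5.28 in KO ventricle, aorta and atrium, against -2.96, -3.06 and -3.26 in WT atrium, WT ventricle and WT aorta. The distance between the groups was many times the range within either of them, and the lowest KO-labelled sample was the aorta. Group means were 5.0 ± 0.51 in KO-labelled and -3.09 ± 0.15 in WT-labelled samples (SD, n = 3 each), a log2 difference of 8.09 ± 0.27 SE (95% interval 7.42 to 8.76), or 273-fold (172 to 434; limma adjusted p = 2.66e-05). Both genes were lowest in the aorta among KO-labelled samples: the 2 arrays of that sample differed from each other by at most 0.04 for Des and for Nes, but with 1 sample per region a difference between regions has no test of its own in KO-labelled cells.

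The markers of skeletal muscle precursors moved with desmin and nestin: all 5 were called higher in KO-labelled samples, and their part in the result was not tested. Markers of other muscle types were mixed. Summed smooth muscle markers were 142 to 285 in KO-labelled and 30.3 to 163 in WT-labelled samples, ranges that overlap. Of the 4 tested, Cnn1 alone was called, higher by 3.72 in KO-labelled samples (limma adjusted p = 0.0286). Summed cardiomyocyte markers were 0.109 to 0.288 in KO-labelled and 0.153 to 0.175 in WT-labelled samples. The 2 tested were called in opposite directions, Tnni3 higher by 1.30 (adjusted p = 0.0332) and Nppa at -2.22 (adjusted p = 0.000366).

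Vimentin, the filament protein of mesenchymal cells, was bright in all samples. The probe that follows its annotated transcript (mm8 chr2:13500458-13500517) read 6.29, 6.42 and 6.40 in KO ventricle, aorta and atrium, against 6.45, 6.50 and 6.30 in WT atrium, WT ventricle and WT aorta. The groups overlapped, and the fitted difference was -0.05 ± 0.13 SE (95% interval -0.36 to 0.27, limma adjusted p = 0.820), so changes within that interval could not be resolved. A further probe named for Vim through a separate cDNA (mm8 chr2:13494992-13495051) was close to background: it read -7.27, -6.31 and -6.49 in KO ventricle, aorta and atrium, above background on 0 of 5 arrays, against -4.44, -4.27 and -5.49 in WT atrium, WT ventricle and WT aorta, above on 1 of 3 arrays. The lower values of that probe in KO-labelled cells are not mirrored by the main vimentin probe, and it was not tested.

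Lamin A/C, whose single gene Lmna gives both main lamins of differentiated nuclei, had 3 probes. The brightest (mm8 chr3:88569137-88569196) read 6.83, 7.03 and 7.14 in KO ventricle, aorta and atrium, against 7.04, 7.05 and 7.01 in WT atrium, WT ventricle and WT aorta. WT-labelled values lay inside the KO-labelled range, and the difference was -0.03 ± 0.14 SE (95% interval -0.37 to 0.30, limma adjusted p = 0.884). The other 2 probes gave 0.03 (mm8 chr3:88570072-88570591, adjusted p = 0.886) and 0.06 (mm8 chr3:88569267-88569326, adjusted p = 0.805), so no probe of Lmna was called in either direction.

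Keratins 8 and 18 form the filament pair of simple epithelia. The 2 probes of Krt8 (mm8 chr15:101824949-101825008 and chr15:101824817-101824876) were both highest in the KO aorta. The first read -5.57, -3.23 and -4.71 in KO ventricle, aorta and atrium, against -5.06, -5.21 and -4.96 in WT atrium, WT ventricle and WT aorta, and was above background on 3 of 5 KO-labelled and 1 of 3 WT-labelled arrays. The second read -5.58, -3.22 and -4.89 in KO ventricle, aorta and atrium, against -5.02, -5.26 and -4.71 in WT atrium, WT ventricle and WT aorta. The KO aorta, measured on 2 arrays that were both above background, stood above all other progenitor samples, whose readings at or near background give no order among them. The group difference of 0.57 ± 0.57 SE (95% interval -0.82 to 1.96) was not called (limma adjusted p = 0.495). Krt18 (mm8 chr15:101859944-101860003) was not above background on any of the 11 arrays and was not tested, so its level and its order across samples were not measured.

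Keratin 19, the smallest keratin, pairs with keratin 8 in simple epithelia. Its probe (mm8 chr11:99957168-99957227) read -5.10, -3.90 and -4.78 in KO ventricle, aorta and atrium, above background on 3 of 5 arrays, against -6.53, -5.70 and -6.39 in WT atrium, WT ventricle and WT aorta, above on 0 of 3. The groups did not overlap, as was so for 49.3% of tested genes. Keratin 19 was higher in KO-labelled samples (fitted log2 difference 1.61 ± 0.38 SE, limma adjusted p = 0.0234), but its size was not measured. With WT-labelled arrays set no lower than the lowest signal above background, the ratio was 1.24-fold. This is not a strict lower bound, because the KO atrium and 1 of 2 KO ventricle arrays were not above background either. The call was lost with the normexp background (adjusted p = 0.174), with slide as a block (0.130), with region as a block (0.0565), without the WT aorta (0.0821) and without the KO atrium (0.0624). Of 7 epithelial and mesothelial markers, 1 was above background in KO-labelled samples and 3 in WT-labelled samples. Their summed levels were 2.08 to 6.67 in KO-labelled and 9.07 to 99.1 in WT-labelled samples. Msln (-3.19, limma adjusted p = 0.0603) was not called. Bnc1, above background on 0 of 5 KO-labelled and 3 of 3 WT-labelled arrays, was at least 62.8-fold lower in KO-labelled samples (adjusted p = 0.00106). The part of these cell types in the keratin results was not tested. Epcam, Cdh1, Upk3b and Lrrn4 were above background in neither group.

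By region, desmin and nestin were brighter in the KO-labelled sample of each pair. For Nes, measured on every array, KO-labelled minus WT-labelled was 8.23 in atrium, 8.37 in ventricle and 7.67 in aorta. Des was not above background in the WT atrium and WT aorta, so only bounds hold there: it was at least 347-fold higher in KO atrium than in WT atrium and at least 195-fold higher in KO aorta than in WT aorta. In aorta, the KO-labelled sample exceeded the WT-labelled one at least 1.46-fold for Krt19 and at least 2.33-fold for Krt8. In atrium neither keratin was above background in either sample. For the main probes of Vim and Lmna the difference lay between -0.22 and 0.12 in all 3 regions, and the other 2 Lmna probes gave 0.28 and 0.30 in aorta. A test of the regions across both genotypes (limma F test) called 0 of 15002 genes, or 0%, with 719 at an unadjusted p under 0.05; among the members the adjusted p was lowest for Nes and Krt8, at 0.807 for both.

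**Figure D2:**
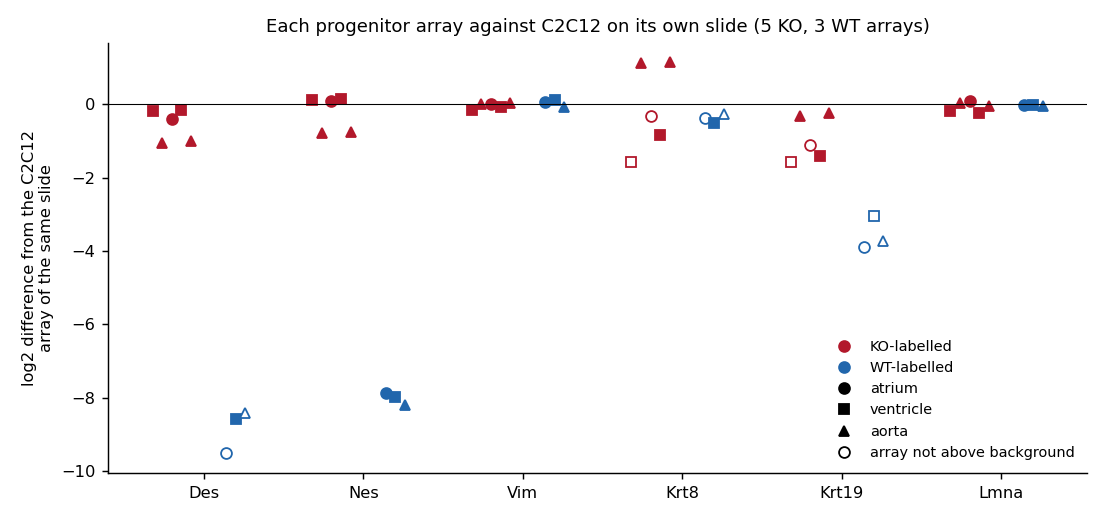
Difference in log2 level of each progenitor array from the C2C12 array on its own slide, for the 6 members above background in at least 1 group; red points are 5 KO-labelled arrays, blue points 3 WT-labelled arrays, shapes give the region, and open points were not above background. Des and Nes lie between -1.04 and 0.14 on KO-labelled arrays, and between -9.52 and -7.89 on WT-labelled arrays.

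The myoblast line gives a scale for what a muscle cell expresses on this array. Of the 6 tested members 0 were called between KO-labelled progenitors and C2C12 (limma), where 1.26% of 15805 genes were called, 0.664% higher and 0.595% lower in KO-labelled samples. Des read 4.17 and 3.54 in the 2 C2C12 samples, which overlapped the KO-labelled values, and the difference was -0.21 (95% interval -1.17 to 0.75, adjusted p = 0.920). Nes read 5.18 and 4.93 in C2C12, with a difference of -0.06 (-0.74 to 0.63, adjusted p = 0.979). These intervals are wide, so equal levels were not shown. Vim differed by -0.02 and Lmna by -0.05 (adjusted p = 0.985 and 0.959). Krt8 read -4.37 and -4.69 in C2C12, a difference of 0.02 with a wide interval (-1.38 to 1.43, adjusted p = 0.996). Krt19 was higher in C2C12, at -3.62 and -2.66, than in any KO-labelled sample. Its difference of -1.46 ± 0.45 SE was not called (adjusted p = 0.249), and groups did not overlap for 37.9% of all tested genes.

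WT-labelled progenitors stood apart from C2C12 in Des, Nes and Krt19. Des was lower in WT-labelled samples, with a fitted difference of -9.16 that rests on 1 of 3 WT-labelled arrays above background (limma adjusted p = 1.53e-05), Nes was 284-fold lower (fitted difference -8.15, adjusted p = 7.24e-06) and Krt19 was at least 3.41-fold lower (adjusted p = 0.00294). In this comparison 13.3% of 15805 genes were lower and 13.7% higher, 27% in all, and the groups did not overlap for 54.1%. Vim at 0.03, Krt8 at -0.55 and Lmna at -0.01 were not called (adjusted p = 0.915, 0.543 and 0.961). Both progenitor groups were set against the same 2 C2C12 samples, so the 2 comparisons are not independent. On each slide taken alone, the Des level minus that of C2C12 was -1.04 to -0.14 on KO-labelled arrays and -9.52 to -8.43 on WT-labelled arrays, of which 1 was above background. For Nes it was -0.79 to 0.14 on KO-labelled arrays and -8.19 to -7.89 on WT-labelled arrays. With slide as a block the genotype difference was 8.31 for Des (limma adjusted p = 0.00321) and 7.84 for Nes (adjusted p = 0.00211). The block set the slide of the WT-labelled arrays against the others, so it was estimated from the 2 C2C12 samples alone. A difference between those samples cannot be told apart from one between slides.

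The other intermediate filament genes split in both directions. Of 20 on the array 11 could be tested, and 5 were higher and 3 lower in KO-labelled samples. The share called was 72.7%, against 29.8% over all tested genes (13.7% higher and 16% lower). Prph and Bfsp2 were above background on no WT-labelled array, and Krt7 and Synm on no KO-labelled array. They entered the test only through the group where they were brighter, so the share called rests in part on that filter. The median log2 difference over the 11 tested genes was 0.43, against -0.06 over all genes. It was 0.33 with genes not above background in a group set at their bound. The counts were 4 higher and 0 lower with the normexp background, 1 and 1 with slide as a block and 3 and 0 with probes above background on every array; with 1 sample left out, 4 or 5 were higher and 0 (without the WT ventricle) to 4 lower. The genes that were higher included Sync (syncoilin, a muscle filament protein that binds the dystrophin complex), Prph (peripherin, of peripheral neurons), Krt14 (of basal keratinocytes) and Lmnb2 (a B-type lamin), and Bfsp2 was the fifth. Those that were lower were Krt7 (of simple epithelia), Synm (synemin, a partner of desmin and vimentin) and Krt5 (the partner of keratin 14).

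Sync read 0.98, -0.34 and 0.37 in KO ventricle, aorta and atrium, against -3.70, -2.96 and -3.83 in WT atrium, WT ventricle and WT aorta. The difference was 3.83 ± 0.40 SE (limma adjusted p = 0.00119), with 3.68 from a second probe. Krt14 read -1.85, -0.06 and -0.78 in KO ventricle, aorta and atrium, against -4.13, -3.95 and -3.83 in WT atrium, WT ventricle and WT aorta, a difference of 3.07 ± 0.44 SE (adjusted p = 0.00416). As for Krt8 and Krt19, the KO aorta was the highest KO-labelled sample for Krt14. Krt5, the keratin that Krt14 pairs with, was close to background and lower in KO-labelled samples, at -5.35, -4.81 and -4.60 in KO ventricle, aorta and atrium against -3.66, -3.84 and -4.18 in WT atrium, WT ventricle and WT aorta (difference -1.02, adjusted p = 0.0261). Its call and direction were lost with the normexp background (0.02, adjusted p = 0.976), and of 15 alternative settings the call held in 9.

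Prph was above background on 5 of 5 KO-labelled arrays, at -4.24, -3.35 and -3.69 in ventricle, aorta and atrium, and on 0 of 3 WT-labelled arrays, which made it at least 2.21-fold higher (limma adjusted p = 0.00165). It read -6.03 and -5.65 in C2C12 and was above background on 1 of 3 arrays there; the KO-labelled difference from C2C12 was 2.08 ± 0.39 SE and was not called (adjusted p = 0.0676). Lmnb2 was higher by 1.04 ± 0.18 SE (adjusted p = 0.00859), at 1.62, 1.35 and 1.45 in KO ventricle, aorta and atrium against 0.14, 0.48 and 0.68 in WT atrium, WT ventricle and WT aorta. Lmnb1, the other B-type lamin, overlapped between groups and was not called (0.43). Bfsp2, a filament protein of the lens, differed by 0.93 (adjusted p = 0.0170) on the 1 of its 3 probes that could be tested. The call held in 9 of 13 alternative settings and was lost with the normexp background (adjusted p = 0.126).

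Krt7 and Synm showed the opposite pattern to desmin. Krt7 was above background on 0 of 5 KO-labelled arrays and on 3 of 3 WT-labelled arrays, where it read -2.28, -2.27 and -2.86 in atrium, ventricle and aorta, and was at least 5.61-fold lower in KO-labelled samples (limma adjusted p = 0.000123). Synm read -3.77, -2.61 and -3.19 in WT atrium, WT ventricle and WT aorta and was above background on no KO-labelled array, at least 3.40-fold lower in KO-labelled samples (adjusted p = 0.00202). The sum of epithelial and mesothelial markers given above was also higher in WT-labelled samples, and its part in the Krt7 result was not tested. Both calls were lost with the normexp background (limma adjusted p = 0.0912 for Krt7 and 0.354 for Synm). Krt7 had 2 probes, of which 1 was too dim to test.

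**Figure D3:**
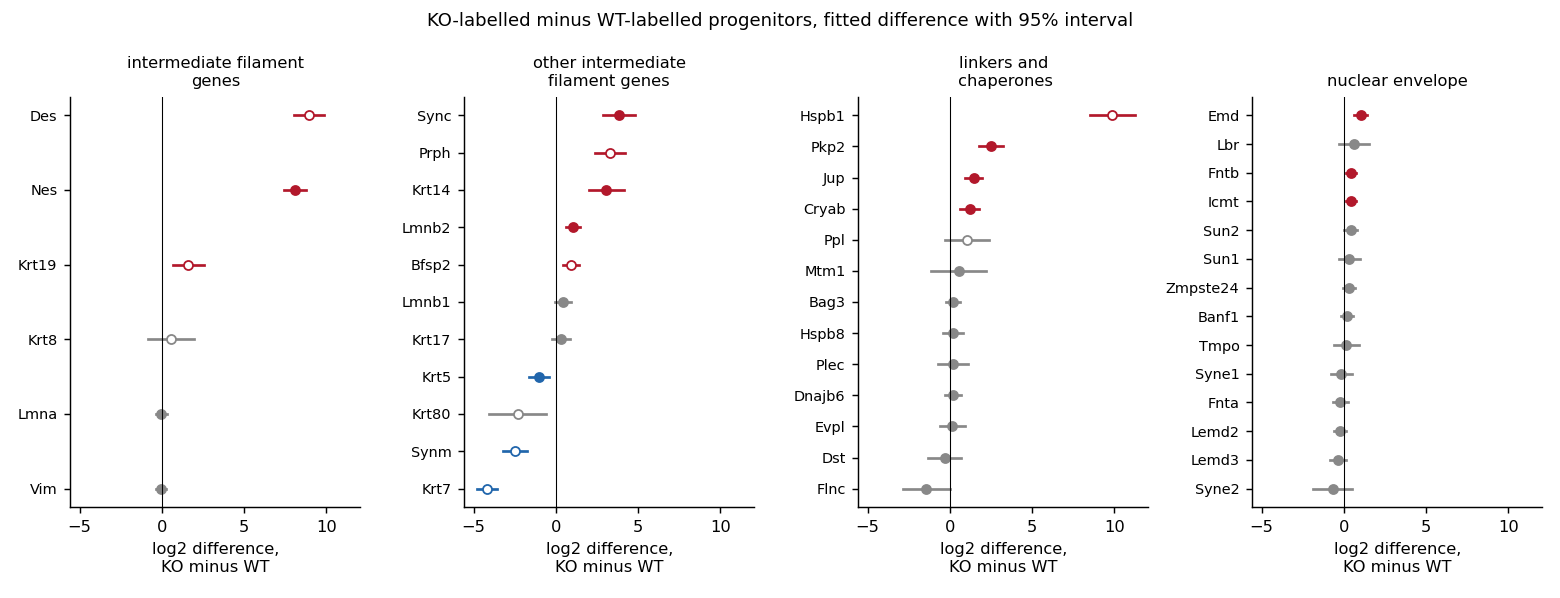
Fitted log2 difference of KO-labelled minus WT-labelled samples with its 95% interval (limma), for the tested intermediate filament genes and 3 lists of related genes; red is higher and blue lower at an adjusted p under 0.05, grey is not called, and open circles mark genes above background on fewer than 1 in 2 arrays of a group, whose sizes are not exact. Hspb1 (9.89), Des (8.95) and Nes (8.09) lie farthest to the right, and most linker and nuclear envelope genes lie near 0.

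Linkers and chaperones attach filaments to junctions or keep them from aggregating. Of 15 genes 13 were tested, 4 were higher in KO-labelled samples and 0 were lower, and the median difference was 0.19. The share called, 30.8%, was near the 29.8% of all tested genes. Hspb1, a small heat shock protein that guards filaments under stress, read 3.98, 4.31 and 4.65 in KO ventricle, aorta and atrium, against -4.27, -6.06 and -6.39 in WT atrium, WT ventricle and WT aorta. It was above background on 1 of 3 WT-labelled arrays, that of the atrium, and was at least 542-fold higher in KO-labelled samples (limma adjusted p = 0.00012). In C2C12 it read 4.15 and 3.66. Its size of change was thus of the order of desmin's, although for Hspb1 the WT-labelled sample with a measured signal was the atrium and for Des the ventricle. The Hspb1 values rest on 1 of 2 probes, since the other was above background on too few progenitor arrays to be tested.

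Pkp2 and Jup, plaque proteins of desmosomes that hold desmin at the junctions of heart muscle cells, were higher by 2.5 ± 0.29 SE (limma adjusted p = 0.00189) and 1.43 ± 0.21 SE (adjusted p = 0.00477). Pkp2 read 1.73, 2.14 and 2.80 in KO ventricle, aorta and atrium, against -0.46, -0.27 and -0.08 in WT atrium, WT ventricle and WT aorta. Jup read -1.06, -0.37 and -0.58 in KO ventricle, aorta and atrium, against -2.24, -1.95 and -2.12 in WT atrium, WT ventricle and WT aorta. Cryab, the chaperone alpha B-crystallin that binds desmin, was higher by 1.19 ± 0.24 SE (adjusted p = 0.0135), and its call was lost without the KO atrium (adjusted p = 0.0507). Dsp (desmoplakin) and Eppk1 (epiplakin) were too dim to test.

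Probes of the same gene disagreed for several linkers. Bag3, a co-chaperone, was not called by its brightest probe (0.19) but a second one gave 1.75 ± 0.16 SE (adjusted p = 0.000677, limma over all probes). Of the 4 tested probes of Dst (dystonin) 1 gave -2.58 (adjusted p = 0.000114), 1 of 5 probes of Plec (plectin) gave -1.32 (adjusted p = 0.00974), and the other probes of both were not called. For Flnc (filamin C) all 4 probes were lower in KO-labelled samples, from -2.11 to -1.21, and 1 of them was called (adjusted p = 0.0386). For Dnajb6, 1 of 3 probes gave -0.52 (adjusted p = 0.0296), and the others, at 0.11 and 0.19, were not called.

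Of 14 genes for lamin partners and lamin processing, all 14 were tested, 3 were higher in KO-labelled samples and 0 lower, with a median of 0.23. The share called was 21.4%, against 29.8% of all tested genes, and the count higher was 1 with the normexp background, in the series-wide table, without a filter on dim probes, with region as a block and with 1 sample left out, except that it was 5 (with 2 lower) without the WT atrium. It was 0 with slide as a block. Emd (emerin, an inner nuclear membrane protein that binds lamin A) was the largest of the 3, at 4.16, 4.37 and 4.45 in KO ventricle, aorta and atrium against 3.17, 3.50 and 3.29 in WT atrium, WT ventricle and WT aorta. The difference was 1.01 ± 0.16 SE (limma adjusted p = 0.00543), while Lmna itself was not called. Icmt and Fntb, enzymes that modify the tail of prelamin A, differed by 0.43 each (adjusted p = 0.0413 and 0.0443). A second Fntb probe gave -0.27, and of 16 alternative settings each, the call held in 6 for Icmt and in 4 for Fntb. Sun2 was not called by its main probe (0.41), but a second one gave 0.82 (adjusted p = 0.0186, limma over all probes).

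With slide as a block, 897 genes were called in place of 4466. The differences of Sync (3.53, limma adjusted p = 0.0648), Krt14 (3.31, 0.105), Pkp2 (2.61, 0.0639), Jup (1.89, 0.0668) and Synm (-1.86, 0.157) lost their calls. Those of Lmnb2 (0.53, adjusted p = 0.526), Cryab (0.52, 0.643), Krt5 (-0.34, 0.788), Emd (0.79, 0.242) and Bfsp2 (0.84, 0.324) were smaller and not called either. Krt7 (-3.87, adjusted p = 0.0101), Prph (3.66, 0.0470) and Hspb1 (9.40, 0.00899) kept their calls. Between KO-labelled progenitors and C2C12, 0 genes of the 3 lists were called by limma, of 13, 13 and 14 tested. WT-labelled progenitors differed from C2C12 in 2 higher and 4 lower of 13 other intermediate filament genes, 4 lower of 13 linkers and chaperones, and 1 lower of 14 nuclear envelope genes, shares of 46.2%, 30.8% and 7.14% beside the 27% called over all genes in that comparison.

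**Figure D4:**
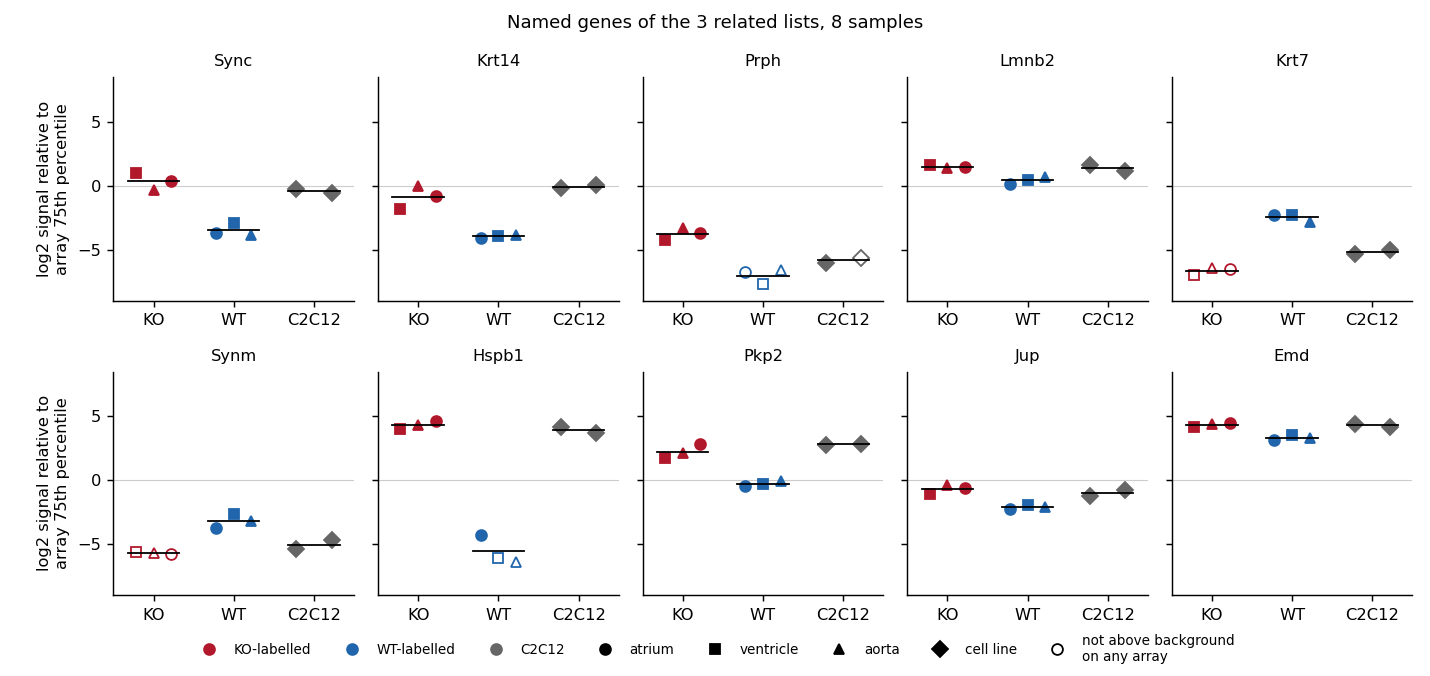
Level (log2 signal relative to the array's 75th percentile) of 10 named genes from the 3 related lists in 3 KO-labelled, 3 WT-labelled and 2 C2C12 samples; shapes give the region, open markers were above background on no array of the sample, and bars are group means. Krt7 and Synm are higher in WT-labelled samples, and the other 8 are higher in KO-labelled samples.

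Genes with the most similar profile were found by the root mean square distance between log2 profiles over the 8 samples, each centred on its own mean, among 14697 genes. The 3 nearest to Des were G0s2 (0.44), Scx (0.45) and Nxf3 (0.49), and Nes came at rank 11 with 0.59, distances that include the readings of Des in the WT atrium and WT aorta, which were not above background. Nearest to Nes were G0s2 (0.36), Igfbp2 (0.37) and Rapsn (0.38). Nearest to Krt19 were Pdgfrb (0.37), Prkar1b (0.37) and Rgcc (0.40), against a median distance of 1.35 over all candidates. These distances include Krt19 readings not above background in every WT-labelled sample and the KO atrium. For Vim, which hardly varied, the nearest named genes were Rps27 and Rpl19, both ribosomal protein genes, at 0.03 and 0.04, behind a transcript without a gene name, and Lmna came at rank 60 with 0.07. Krt8 was nearest to Adam8 (0.31), a probe without a gene name (0.33) and Olfr397 (0.34), and Lmna to 4930527J03Rik, BC027816 and AK006763 (0.05 each). The Krt8 distances include readings not above background in the KO atrium, WT atrium and WT aorta.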

How the data were processed

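Data from 11 1-colour Agilent mouse arrays were used. The authors deposited scanner files whose source, by the submitters' processing notes, was version 9.5.3.1 of Agilent Feature Extraction, and the intensity column (processed signal, background-subtracted per the file headers) was used; a series-wide table of log2 values deposited by the authors served as an alternative. Array positions are on mm8, per the file headers; exon or UTR annotation of the probes was not used here. Control spots and outlier spots (39 to 120 per array) were left out, and spots of 1 probe were averaged. Values are log2 of signal minus each array's 75th percentile; 49 to 62% of probes were above background, and no member probe was saturated. Probes were named through RefSeq (24348 by accession, 6293 by symbol, 2419 by synonym; 8061 kept the file's name). Where a gene had several probes, the one with the highest mean level was its main probe. Differences were tested with limma 3.58.1 (R 4.3.3), all 3 groups in 1 fit for C2C12 comparisons and KO and WT samples alone otherwise, over genes above background on at least 3 arrays, with Benjamini-Hochberg adjustment at 0.05. Tests were checked on simulated data. "At least" folds use the lowest signal above background on each array for dim probes, and precision is limited by how many arrays there are. The 7 members and the lists were chosen with earlier results of these data known. All members were named, and of each list at most 6 genes called between KO and WT, by size. Krt5, Bfsp2, Lmnb1, Bag3, Dst, Plec, Flnc, Dnajb6, Sun2, Nefl and Bfsp1 were named after their values were seen.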

Additional observations from a re-analysis of the deposited data

Results flagged for a closer look

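In 2 members the genotype difference (KO-labelled minus WT-labelled, log2) changed sign between heart regions on probes that were above background on every progenitor array. There was 1 sample per genotype and region, so the difference between regions was not tested. Vim differed by 0.12 in aorta, -0.204 in ventricle and -0.0543 in atrium. The brightest Lmna probe differed by 0.021 in aorta, -0.219 in ventricle and 0.101 in atrium. The other Lmna probes gave 0.276 and 0.301 in aorta, -0.0684 and -0.119 in ventricle, and -0.104 and -0.00477 in atrium.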

How the results depend on the processing

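Des and Nes kept their direction and call between KO and WT under every alternative that gave a value (15 for Des, 16 for Nes), with log2 differences of 6.92 to 9.19 for Des and 7.28 to 8.39 for Nes. The count of called genes, 4466 between KO and WT, was 2851 with normexp and 897 with slide as a block, and 2648 to 5876 when 1 sample was left out. Between KO and C2C12 it was 199, and 1629 with every array as its own sample, 49 with normexp, 100 without a filter on dim probes, 60 with probes above background on every array, 27 with the slide block and 13 to 466 with 1 sample left out. Between WT and C2C12 it was 4260, and 6661 with every array as its own sample, 2565 with normexp, 2285 with the slide block and 2272 to 5624 with 1 sample left out. The cause of these shifts was not tested.

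Values near 0 that were called in no setting, and Krt5, changed sign. With median scaling, Vim was 0.0597 and Lmna 0.0734 between KO and WT, Vim 0.0316 and Lmna 0.00722 between KO and C2C12, and Vim -0.0282 between WT and C2C12. Lmna between WT and C2C12 was 0.0517 with normexp, 0.00509 with quantile normalization and 0.0605 in the series-wide table. Krt8 between KO and C2C12 was -0.136 with the slide block, and Krt5, called lower in KO than in WT, was 0.0182 with normexp. With 1 sample left out, Lmna between KO and WT ranged from -0.103 to 0.0543, and Vim between WT and C2C12 from -0.0143 to 0.0843. Between KO and C2C12 the ranges were -0.532 to 0.106 for Des, -0.211 to 0.237 for Nes, -0.0449 to 0.0186 for Vim, -0.116 to 0.0416 for Lmna and -0.614 to 0.556 for Krt8.

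Krt19 between KO and WT was not tested without the KO ventricle or KO aorta, since too few arrays were then above background. With only probes above background on every array, 1 of the members was called higher. No paired analysis was possible because the labels carry no replicate numbers; with heart region as a block in its place, 3652 genes were called between KO and WT, Des (adjusted p = 0.000858) and Nes (0.000462) kept their calls, and Krt19 (0.0565) did not. A median of all genes that moves with the scaling, 3 samples per group and 49 to 62% of probes above background limit what can be seen.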

Other observations

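Nefl, the light chain of neurofilaments, and Bfsp1, a filament protein of the lens, were seen in part of the WT-labelled samples. Nefl read -6.79, -0.68 and -0.73 in WT atrium, ventricle and aorta, above background in ventricle and aorta, while KO-labelled ventricle, aorta and atrium read -7.50, -7.14 and -6.67 and were not above background. Bfsp1 read -4.78, -2.76 and -2.83 in WT atrium, ventricle and aorta, with the same 2 samples above background, against -7.55, -5.92 and -6.73 in KO ventricle, aorta and atrium. Both genes were above background on too few arrays to be tested, were chosen after their values were seen, and were at background in C2C12.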
